A study of Danio rerio with 6 samples.

Results

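Transcripts of the proteasome, the protease complex that degrades ubiquitin-tagged proteins, were examined in the guts of larval zebrafish (Danio rerio, wild type) 1 day after the organ was cut through. Proteasome genes were taken as all rows of the count table whose symbol starts with psma to psmg followed by a digit, which gave 56 genes of 15419, and 49 of them passed the filter on low counts among 11466 genes tested. Of the 56, 54 are subunits, alternative subunits, activators, inhibitors or assembly chaperones of the complex, and 2 (psmc3ip and psme3ip1) share the name only because their proteins bind a proteasome protein.

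The transected group (labelled cut_wt) holds 3 libraries from wild-type guts collected 24 h after transection, and the control group (labelled wt) holds 3 libraries from wild-type guts with no transection in their labels. All larvae are given as 5 days post-fertilization, without saying whether that is the age at cutting or at collection, and strain and sex are not stated. Each library is a biological replicate that pooled 10 to 15 whole guts, so every value is an average over animals and over all cell types of the organ. In such bulk RNA, a change in the number of cells of a type and a change in RNA per cell cannot be told apart.

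The 26S proteasome consists of a barrel-shaped 20S core and 19S caps. The core has outer rings of alpha subunits (psma genes) and inner rings of beta subunits (psmb genes), of which psmb5, psmb6 and psmb7 carry the constitutive catalytic sites. The caps hold a ring of ATPases (psmc genes) that unfold substrates and non-ATPase subunits (psmd genes) that bind and remove ubiquitin. In mammals, interferon-gamma replaces the constitutive catalytic subunits by PSMB8, PSMB9 and PSMB10, which makes the immunoproteasome of leukocytes and inflamed tissue, and the transcription factor NRF1 (NFE2L1) raises the whole set of subunit genes when proteasome activity falls short. In zebrafish, inducible beta subunit genes lie together beside antigen-processing genes: in the RefSeq table of assembly GRCz12tu, psmb8a, psmb13a, psmb12, psmb9a and the peptide transporter gene tap2a follow one another, and several of these gene models overlap.

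Libraries held 21525093 to 25131242 counts, of which 0.226% to 0.298% fell on proteasome genes. On the first principal component over all genes (47.0% of the variance) both replicate 1 libraries lay apart, at -33.1 in transected and -44.3 in control guts. The other 4 lay at 15.5 (transected 2), 0.0037 (transected 3), 48.5 (control 2) and 13.5 (control 3). Markers of the intestinal lining were abundant in every library: the summed level of the 10 enterocyte markers found was 15822 to 20048 CPM in transected and 17073 to 20391 CPM in control libraries, with vil1 and cdh17 high and fabp2 at 3 to 11 counts per library. Markers of liver, skeletal muscle, epidermis and exocrine pancreas varied as well. Of these edgeR called 0 and DESeq2 called 1, the epidermal krtt1c19e, which was higher in transected guts. Over all genes edgeR called 0.0174% higher and DESeq2 0.846%. Hepatocyte markers summed to 4417 to 8274 CPM in transected and 5517 to 14167 CPM in control libraries, skeletal muscle markers to 1760.2 to 3699 CPM in transected and 551 to 6114 CPM in control libraries and epidermal markers to 2882 to 4889 CPM in transected and 2198 to 3024 CPM in control libraries. Of 8 hepatocyte markers tested all 8 were lower in transected guts, with a median log2 fold change of -0.62 (pairs 1, 2 and 3: -0.84, -0.23 and -0.85), and of 8 epidermal markers 7 were higher, with a median of 0.47 (pairs 1, 2 and 3: 0.42, 0.55 and 0.72). Of 8 pancreas markers 7 were higher, with a median of 0.42 (pairs 1, 2 and 3: 0.86, -0.31 and 1.04), and of 5 muscle markers 3 were higher, with a median of 0.074 (pairs 1, 2 and 3: -0.55, 1.76 and 0.25). All of these medians but that of muscle exceed in size the proteasome median given below. The part of these tissues in the results was not tested.

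Most proteasome genes stood slightly higher in transected guts, the core and cap subunits by 0.013 to 0.36 on the log2 scale, and no single gene passed the test. In edgeR's quasi-likelihood test 0 of the 49 genes were called higher and 0 lower at an adjusted p under 0.05, where 0.0174% of all genes tested were called higher and 0.0% lower. Without adjustment, p was under 0.05 for 0 and 0 of them too, against 4.32% and 3.55% of all genes. DESeq2 and limma-voom each called 0 of the 49, and DESeq2 called 0.846% of all genes higher and 0.576% lower. The log2 fold change was nevertheless positive for 45 of the 49, with a median of 0.18 (a factor of 1.13), while 50.5% of all genes were positive and their median was 0.0026. Of the 43 proteasome genes with a mean of at least 10 CPM, 39 were positive, with a median of 0.15 (a factor of 1.11). All 34 core and cap subunits tested were positive, with a median of 0.18. Over the 49, the standard error of a single gene was 0.15 in the median, close to the size of the difference itself, and adjusted p ran from 0.658 to 0.988. No p-value is given for the set as a whole, since its members were chosen together and belong to one complex.

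**Figure D1:**
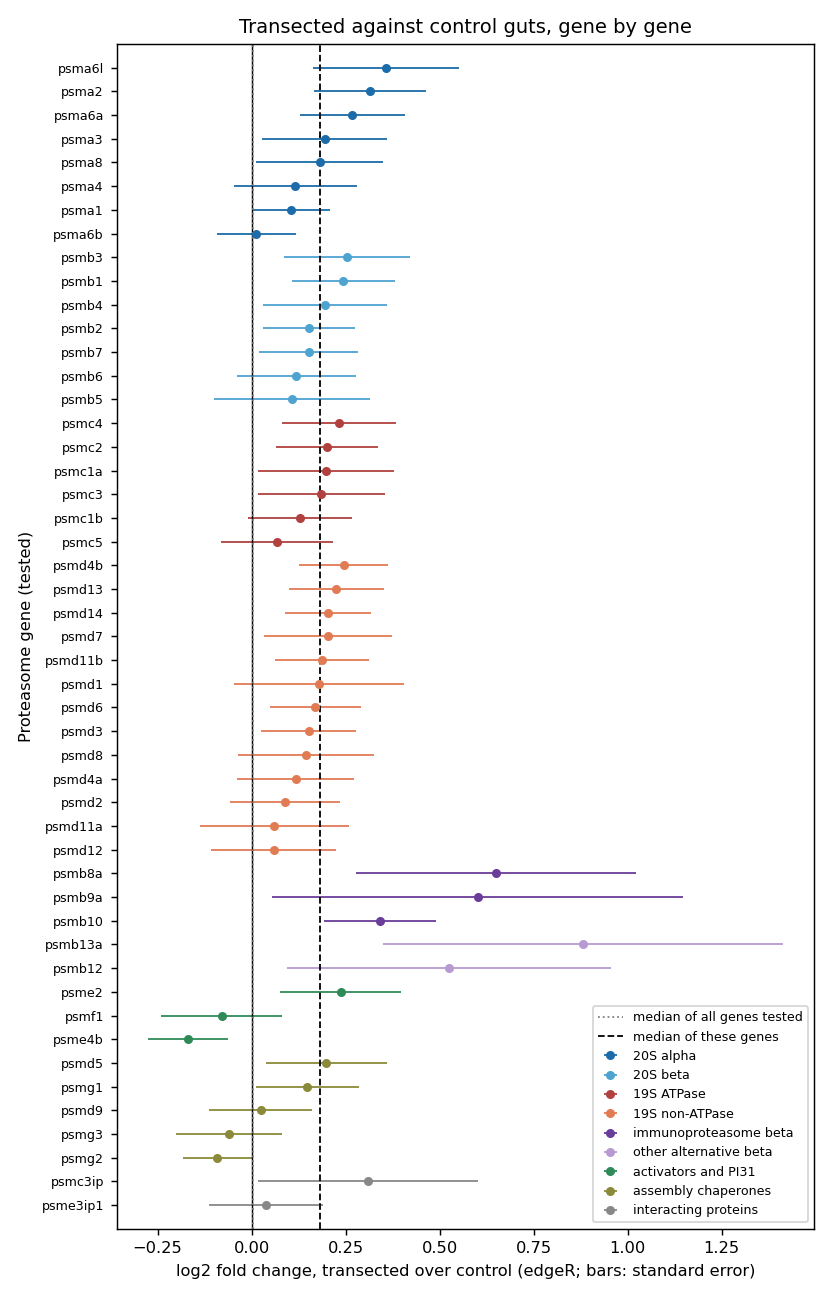
Log2 fold change of the 49 tested proteasome genes, transected over control guts (x axis, edgeR), with standard errors as bars and genes grouped by subunit class (y axis). Core and cap subunits cluster near the dashed median of 0.18, psmb8a, psmb9a, psmb12 and psmb13a lie further right with the widest bars, and psme4b, psmg2, psmf1 and psmg3 lie left of 0.

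Core and cap subunits ran in parallel over the libraries. The share of counts on proteasome genes was 0.244, 0.298 and 0.290% in transected libraries 1, 2 and 3 and 0.226, 0.245 and 0.274% in control libraries 1, 2 and 3, a mean of 0.277% ± 0.0294 against 0.248% ± 0.0242 (SD, n = 3 each here and below). The replicate 1 library was the lowest of its own group on both sides, and the groups overlapped, since transected 1 lay below controls 2 and 3. Exocrine pancreas markers summed to 39259.7, 56073 and 80216 CPM in transected libraries 1, 2 and 3 and 21514, 67749 and 37694 CPM in control libraries 1, 2 and 3. Transected 3 was highest and control 1 lowest in pancreas markers. Among the 49 tested proteasome genes, transected 3 was the highest library for 35 and control 1 the lowest for 39. Control 2 exceeded transected 2 in pancreas markers but lay below it in the proteasome median given next. The part of pancreas tissue in these levels was not tested. Relative to each gene's mean over the 6 libraries, the median log2 level of the 49 was -0.16, 0.15 and 0.25 in transected libraries 1, 2 and 3 and -0.28, -0.0022 and 0.039 in control libraries 1, 2 and 3, while the median over all genes tested stayed between -0.0064 and 0.018. TMM scaling itself aims to hold that all-gene median near 0. Within a group, the replicate 1 library differed from the others by more than the median difference between groups. Transected 3 exceeded transected 1 by a median of 0.37, and control 3 exceeded control 1 by 0.30. Transected 3 exceeded transected 2 by only 0.075, and control 3 exceeded control 2 by 0.054.

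**Figure D2:**
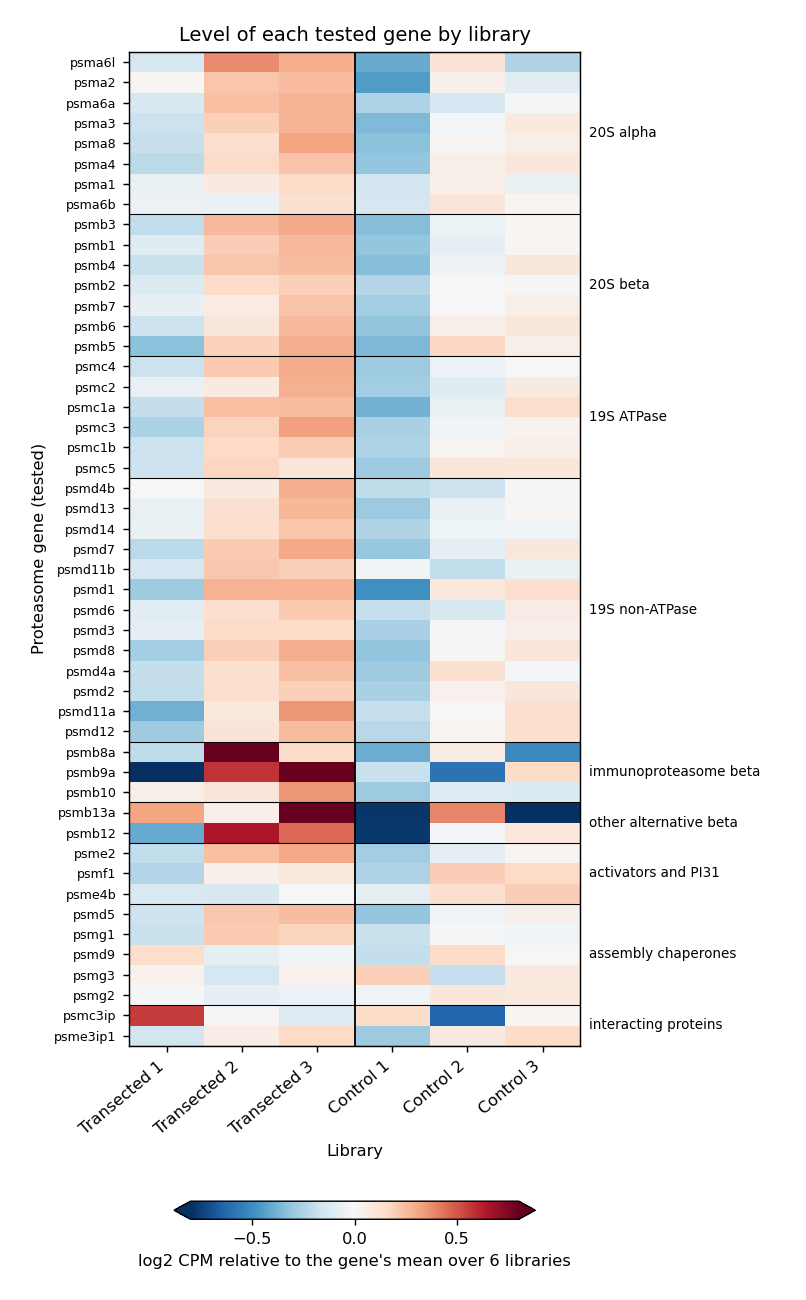
Level of each of the 49 tested genes (rows, grouped by subunit class) in each library (columns), as log2 CPM relative to the gene's mean over the 6 libraries. Within a library most core and cap subunits have nearly one colour, deepest red in transected 3 and deepest blue in control 1.

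Replicate numbers were taken to pair the libraries, and within pairs the proteasome difference was steadier. The correlation check, weakest for pair 3, is given with the processing, as are further numbers in the titles, which do not match in pair 1. Transected exceeded control in 43 of 49 genes in pair 1, 41 in pair 2 and 43 in pair 3, with median log2 ratios of 0.13, 0.18 and 0.20. Over all genes the shares were 49.8%, 52.6% and 52.1%. In 35 of the 49 genes the transected library was the higher one in all 3 pairs, against 20% of all genes, and 1 gene (psme4b) was lower in all 3, against 17.0%. In edgeR with the replicate block the median standard error of these genes was 0.082 in place of 0.15. In this fit 12 genes had an unadjusted p under 0.05 with a positive log2 fold change and 0 with a negative one, where 6.99% and 6.11% of all genes did. Still 0 passed after adjustment over all genes with the block (lowest adjusted p 0.285, for psma2), where 0.0262% of all genes were called higher and 0.00872% lower.

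**Figure D3:**
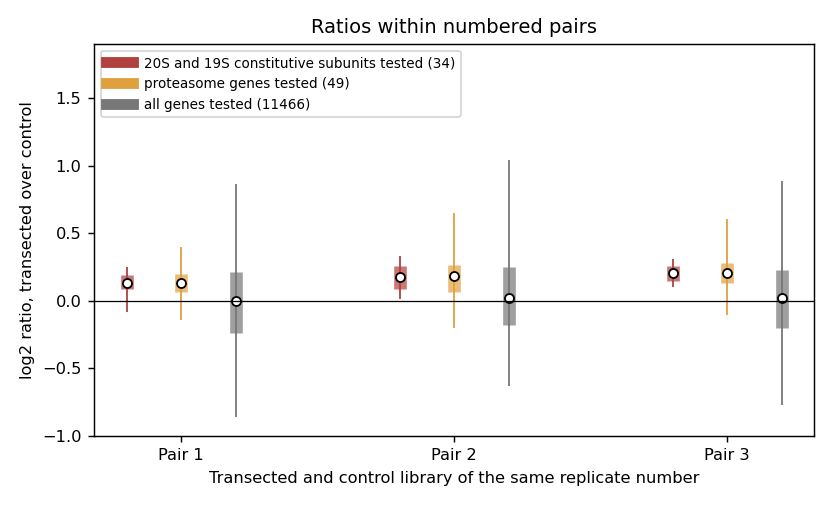
Log2 ratio of the transected to the control library of the same replicate number (y axis) for 34 constitutive 20S and 19S subunits, the 49 proteasome genes and all 11466 genes tested, by pair (x axis). Circles are medians, thick bars the middle 50% and thin lines the 5th to 95th percentile, and the subunits lie in a narrow band with medians of 0.13, 0.18 and 0.21.

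Leaving out both replicate 1 libraries gave a median of 0.19, with 42 of 49 genes positive. In that fit 13 positive genes and 1 negative gene (psme4b) had an unadjusted p under 0.05, against 9.05% and 10.2% of all genes. After adjustment 0 proteasome genes passed (lowest adjusted p 0.116, for psmb3), where 0.866% of all genes were called higher and 1.5% lower. Single libraries moved the median by more than 1.5 times: it was 0.077 without control replicate 1 (38 positive) and 0.099 without transected replicate 3 (40 positive).

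The 8 alpha ring genes tested were all positive, from 0.013 to 0.36 on the log2 scale with a median of 0.19, and 0 were called. psma6l, an alpha subunit gene related to psma6a and psma6b, was at 16.1, 23.0 and 21.6 CPM in transected guts and 13.3, 19.1 and 15.0 CPM in controls. Its transected libraries 2 and 3 lay above every control, and transected 1 lay among the controls. The log2 fold change of psma6l was 0.36 (adjusted p = 0.736, SE 0.19). RefSeq lists psma2 as an older name of psma2a and, with a capital, of psma2b, so which copy this row counts is uncertain. psma2 was at 50.8, 58.7 and 59.6 CPM in transected guts and 36.8, 51.7 and 47.4 CPM in controls. Control 1 was far below the rest and control 2 exceeded transected 1, so the groups overlapped, with a log2 fold change of 0.32 (adjusted p = 0.685, SE 0.15). At the other end of the class, psma6b had 41.9, 41.7 and 47.1 CPM in transected guts and 39.4, 46.4 and 43.8 CPM in controls, interleaved between groups, with a log2 fold change of 0.013 (adjusted p = 0.988, SE 0.10) that was -0.031 without the replicate 1 libraries and also negative without transected replicate 3 (-0.045) or control replicate 1 (-0.049). psma1 had 106, 116 and 122 CPM in transected guts and 99.7, 114 and 106 CPM in controls, where control 2 nearly matched transected 2, with a log2 fold change of 0.10 (adjusted p = 0.879, SE 0.10). The remaining tested alpha genes (psma3, psma4, psma6a and psma8, the last listed with the older name psma7) had log2 fold changes of 0.19, 0.12, 0.27 and 0.18.

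All 7 constitutive beta ring genes were positive too, in a narrower band of 0.11 to 0.25 with a median of 0.15, and 0 were called. The catalytic subunits did not stand out. psmb5, the chymotrypsin-like subunit, was at 23.1, 32.9 and 35.5 CPM in transected guts and 22.5, 32.5 and 29.9 CPM in controls, and psmb6, the caspase-like subunit, at 62.0, 73.8 and 83.0 CPM in transected guts and 55.7, 71.6 and 74.1 CPM in controls. For both the replicate 1 library was the lowest of its group and control 2 and 3 lay between transected 1 and transected 3. Their log2 fold changes were 0.11 (adjusted p = 0.953, SE 0.21) for psmb5 and 0.12 (adjusted p = 0.914, SE 0.16) for psmb6. psmb5 turned negative without transected replicate 3 (-0.015) or control replicate 1 (-0.033). psmb7, the trypsin-like subunit, had a log2 fold change of 0.15 (adjusted p = 0.850, SE 0.13). The structural subunits psmb3 and psmb1 led the class. psmb3 was at 54.4, 74.8 and 76.9 CPM in transected guts and 49.3, 60.4 and 63.0 CPM in controls and psmb1 at 82.1, 101 and 105 CPM in transected guts and 70.9, 83.5 and 88.4 CPM in controls. In both, transected 2 and 3 lay above all controls and transected 1 below controls 2 and 3. Log2 fold changes were 0.25 (adjusted p = 0.785, SE 0.17) for psmb3 and 0.24 (adjusted p = 0.750, SE 0.14) for psmb1, and the ratios in pairs 1, 2 and 3 were 0.14, 0.31 and 0.29 for psmb3 and 0.21, 0.27 and 0.25 for psmb1.

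Among the 19S ATPases, 6 tested genes ranged from 0.068 to 0.23 with a median of 0.19, and the transected library was the higher one in all 3 pairs for each of the 6. psmc4 was at 70.2, 91.3 and 97.3 CPM in transected guts and 64.6, 76.4 and 79.3 CPM in controls, with a log2 fold change of 0.23 (adjusted p = 0.785, SE 0.15). psmc2 was at 75.0, 82.5 and 95.4 CPM in transected guts and 64.5, 73.1 and 82.4 CPM in controls, with a log2 fold change of 0.20 (adjusted p = 0.797, SE 0.14). In both genes the groups overlapped through transected 1, which lay below control 3. psmc5 and psmc1b were the lowest of the class, with 96.3 ± 11.4 CPM in transected guts and 91.9 ± 13.5 CPM in controls for psmc5 and 55.9 ± 7.54 CPM in transected guts and 51.1 ± 5.54 CPM in controls for psmc1b. Their log2 fold changes were 0.068 (adjusted p = 0.964, SE 0.15) and 0.13 (adjusted p = 0.888, SE 0.14). psmc5 was -0.050 without control replicate 1.

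The 13 non-ATPase cap subunits were all positive, from 0.059 to 0.24 with a median of 0.17, and again 0 were called. psmd4b, a ubiquitin receptor gene, was at 30.7, 32.4 and 37.8 CPM in transected guts and 26.8, 27.4 and 31.0 CPM in controls. Control 3 just exceeded transected 1, and the log2 fold change was 0.24 (adjusted p = 0.701, SE 0.12). psmd13, a lid subunit, was at 60.2, 68.6 and 75.3 CPM in transected guts and 51.2, 60.4 and 63.0 CPM in controls, where controls 2 and 3 both exceeded transected 1, with a log2 fold change of 0.23 (adjusted p = 0.750, SE 0.13). psmd14, the deubiquitinase that removes ubiquitin chains at the cap, had 58.1 ± 5.67 CPM in transected guts and 50.5 ± 4.17 CPM in controls, a log2 fold change of 0.20 (adjusted p = 0.750, SE 0.11). The smallest differences were those of psmd12 and psmd11a, both lid subunits. psmd12 was at 40.8, 53.5 and 59.4 CPM in transected guts and 42.7, 50.5 and 54.3 CPM in controls and psmd11a at 37.7, 52.2 and 63.1 CPM in transected guts and 43.4, 49.2 and 54.1 CPM in controls, where transected 1 was the lowest of all 6 libraries. Log2 fold changes were 0.059 (adjusted p = 0.968, SE 0.17) for psmd12 and 0.060 (adjusted p = 0.972, SE 0.20) for psmd11a, and both were negative without control replicate 1 (-0.033 and -0.019) and without transected replicate 3 (-0.060 and -0.12). psmd1 and psmd2, the large scaffold subunits of the base, had log2 fold changes of 0.18 and 0.089.

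**Figure D4:**
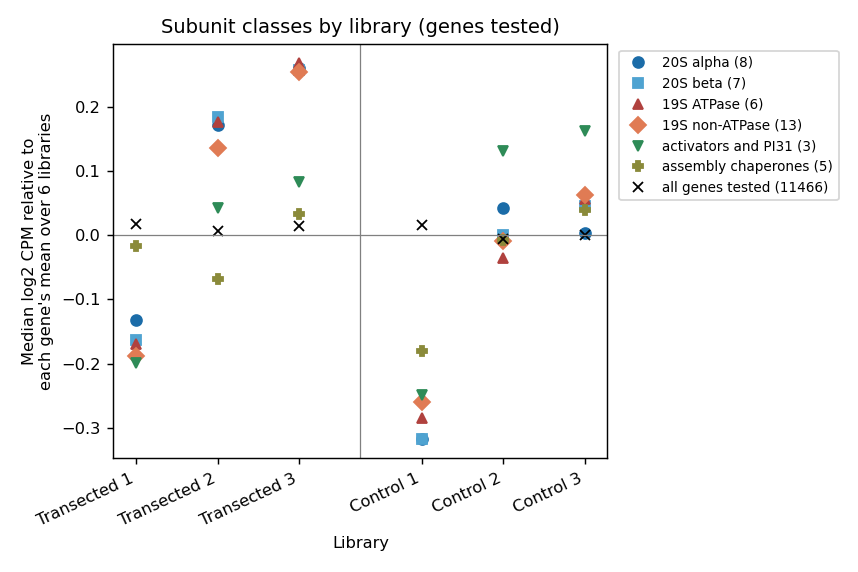
Median level of the tested genes of each subunit class in each library (y axis, log2 CPM relative to each gene's mean over 6 libraries; number of genes in brackets). The 4 core and cap classes move together, from -0.32 (alpha subunits, control 1) to 0.27 (ATPases, transected 3), while all genes stay near 0, where TMM scaling aims to hold them.

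Several subunits are encoded by duplicated genes, and reads shared between copies were not examined, so differences between copies are uncertain. psma6a counts were 69.0, 89.5 and 81.7% of psma6b counts in transected libraries and 67.8, 62.2 and 71.9% in the control libraries. Transected 1 lay within the controls, and the log2 ratio differed by 0.25 between group means. psma6l counts were 38.4, 55.1 and 45.9% of psma6b counts in transected libraries and 33.9, 41.1 and 34.2% in the control libraries, again overlapping. For psmc1a over psmc1b, psmd4b over psmd4a and psmd11b over psmd11a the group means of the log2 ratio differed by 0.074, 0.13 and 0.15, and the groups overlapped in each. In the RefSeq table psma6a and psma6b each neighbour a gene of the NF-kB inhibitor IkB alpha, nfkbiab beside psma6a and nfkbiaa beside psma6b.

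The inducible catalytic subunits of the immunoproteasome had larger log2 fold changes than psmb5, psmb6 and psmb7, were scarce, and did not pass the test. Their median of 0.60 over 3 genes is the value of psmb9a, which had only 8 counts in transected 1 and in control 2. With fewer than 10 counts in control 2, psmb9a was tested in part through its transected counts. The class median was 0.38 without transected replicate 2 and 0.24 without transected replicate 3. psmb10, the inducible counterpart of psmb7, was at 7.80, 8.07 and 9.65 CPM in transected guts and 6.15, 7.02 and 6.97 CPM in controls. Every transected library exceeded every control, which held for 1 of the 49 proteasome genes and for 7.48% of all genes; 0 of the 49 lay wholly below, against 6.38%. The log2 fold change of psmb10 was 0.34 (adjusted p = 0.658, SE 0.15), the smallest p of the 49. psmb10 counts were 7.83, 7.40 and 7.90% of psmb7 counts in transected libraries and 7.15, 6.74 and 6.47% in the control libraries, without overlap between groups. The gene model of psmb10 overlaps that of LOC100538032 in the RefSeq table, and reads shared between them were not examined.

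psmb8a, the inducible counterpart of psmb5, had 40, 76 and 46 counts in the transected libraries against 33, 40 and 27 in the control libraries, or 1.54, 3.43 and 1.98 CPM in transected guts and 1.33, 1.86 and 1.22 CPM in controls. Transected 2 held the most counts, and the groups overlapped, since control 2 had as many counts as transected 1. The log2 fold change was 0.65 (adjusted p = 0.752, SE 0.37), and the ratio of summed, scaled counts was 1.55 with a 95% exact interval of 1.2 to 2.01, which covers counting error only here and below. psmb8a counts were 6.67, 10.4 and 5.59% of psmb5 counts in transected libraries and 5.92, 5.73 and 4.09% in the control libraries. psmb9a, the inducible counterpart of psmb6, had 8, 21 and 27 counts in the transected libraries against 13, 8 and 15 in the control libraries. Transected 2 and 3 were highest, and transected 1 shared the lowest count with control 2. Its log2 fold change was 0.60 (adjusted p = 0.862, SE 0.55) and the counting interval of its ratio ran from 0.962 to 2.33. psmb9a counts were 0.496, 1.28 and 1.40% of psmb6 counts in transected libraries and 0.943, 0.520 and 0.917% in the control libraries. These groups overlapped, and transected 1 was the lowest library. psmb9a was 0.99 without both replicate 1 libraries (adjusted p = 0.313 in edgeR), over 1.5 times the value with all 6.

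The alternative beta subunit genes of the same cluster were scarce too and did not pass the test. psmb12 had 17, 32 and 29 counts in the transected libraries against 12, 19 and 21 in the control libraries, and the libraries overlapped through transected 1. Its log2 fold change was 0.53 (adjusted p = 0.838, SE 0.43), with a counting interval of its ratio from 0.998 to 2.08. psmb13a had 16, 11 and 22 counts in the transected libraries against 6, 14 and 5 in the control libraries, with control 2 above transected 2. Its log2 fold change was 0.88 (adjusted p = 0.766, SE 0.53), with a counting interval from 1.14 to 3.17. psmb9a and psmb13a had fewer than 10 counts in at least 1 control, so their place among the genes tested rests in part on their transected counts. Because these gene models overlap in the RefSeq table, counts may be divided among them.

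**Figure D5:**
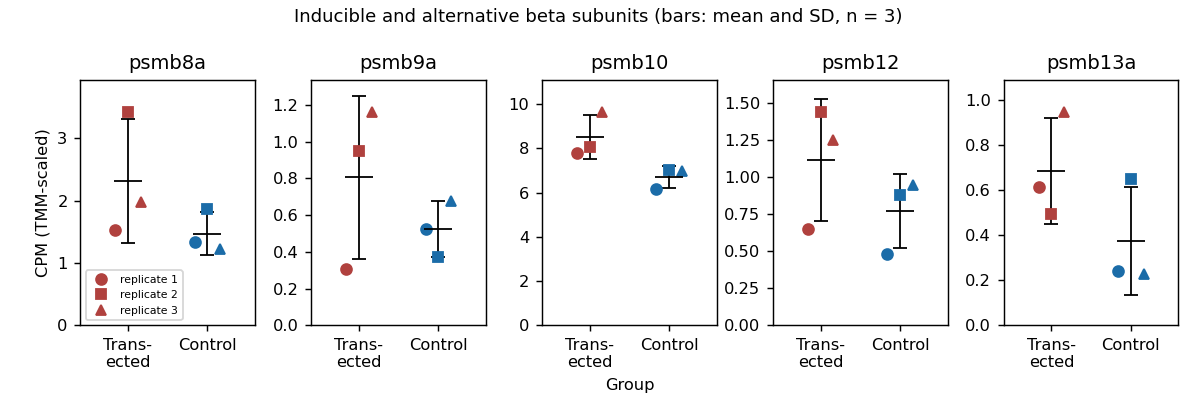
CPM of the inducible (psmb8a, psmb9a, psmb10) and alternative (psmb12, psmb13a) beta subunits in transected and control guts (x axis), with symbols for replicate numbers and bars for mean and SD (n = 3). psmb10 is the one gene of these 5 with every transected library above every control, at 7.80 to 9.65 CPM against 6.15 to 7.02 CPM.

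Among leukocytes, which carry the immunoproteasome in mammals, summed macrophage markers lay above every control in every transected library. The 6 macrophage markers found summed to 65.1 to 88.8 CPM in transected and 25.7 to 30.1 CPM in control libraries, with mpeg1.1 at 0 counts in every library. All 5 macrophage markers tested had a log2 fold change above 0 (median 1.05). Of these, 0 passed over all genes in edgeR and 4 passed in DESeq2. Over all genes edgeR called 0.0174% higher and DESeq2 0.846%. The 7 neutrophil markers summed to 7429 to 16828 CPM in transected and 3333 to 15118 CPM in control libraries, of which cpa5 alone made up 98.3%. cpa5 was at 7290.0, 10804 and 16525 CPM in transected guts and 3173, 15073 and 7523 CPM in controls, and prss1, a trypsin gene of the exocrine pancreas, at 13455, 18674 and 26624 CPM in transected guts and 7346, 23209 and 12881 CPM in controls. Both were highest in transected 3, next in control 2 and lowest in control 1, so this sum runs with pancreas markers. The 6 neutrophil markers without cpa5 summed to 139, 358 and 303 CPM in transected and 159.7, 44.7 and 47.5 CPM in control libraries. Of all 7, 6 were positive with a median of 0.90, and lect2l was negative (-0.039). edgeR called 0 of them and DESeq2 called 2 (mmp9 and mmp13a). In mmp9, mmp13a and ncf1 every transected library exceeded every control, as in 7.48% of all genes. Their log2 fold changes were 2.24, 2.66 and 0.65. The neutrophil peroxidase gene mpx was at 18.1, 249 and 143 CPM in transected guts and 21.9, 2.56 and 2.99 CPM in controls, highest in transected 2. The 8 lymphoid markers found summed to 2.33 to 5.46 CPM in transected and 2.09 to 4.65 CPM in control libraries, with cd8a at 0 counts in every library and lck at 0 in all but transected 2. The part of leukocytes in the psmb8a, psmb9a and psmb10 values was not tested.

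The activators and the inhibitor that bind the core ends had estimates of both signs. psme2, a subunit of the interferon-inducible PA28 activator in mammals, was at 28.2, 38.2 and 39.9 CPM in transected guts and 26.6, 30.7 and 32.8 CPM in controls. Its profile followed that of the core subunits, with transected 2 and 3 above all controls and transected 1 below controls 2 and 3. The log2 fold change of psme2 was 0.24 (adjusted p = 0.795, SE 0.16). psme2 overlaps lsm5 in the RefSeq table, and psmb1, psmd1, psmd2, psmd6, psmd7, psmd8, psmg1 and psmc3ip overlap other genes there. Whether reads were counted by strand is not stated. psme4b, which encodes the PA200 activator, was at 70.2, 70.0 and 76.4 CPM in transected guts and 72.5, 83.6 and 87.4 CPM in controls. It was the only 1 of the 49 genes lower in the transected library of all 3 pairs (-0.046, -0.26 and -0.19), although transected 3 exceeded control 1. Its log2 fold change was -0.17 (adjusted p = 0.769, SE 0.11), and -0.23 without both replicate 1 libraries (adjusted p = 0.199 in edgeR). psmf1, which encodes the proteasome inhibitor PI31, had 17.4 ± 2.0 CPM in transected guts and 18.4 ± 3.0 CPM in controls, with a log2 fold change of -0.079 (adjusted p = 0.956, SE 0.16) that was above 0 without transected replicate 1 (0.0018) or control replicate 2 (0.00028).

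Assembly chaperones were near 0 in the median (0.024 over 5 genes tested, -0.091 to 0.20). psmd5, a chaperone of the cap base, and psmg1, a chaperone of the alpha ring, had log2 fold changes of 0.20 (adjusted p = 0.833, SE 0.16) and 0.15 (adjusted p = 0.865, SE 0.14). psmd5 was at 15.5, 20.2 and 20.6 CPM in transected guts and 14.0, 17.2 and 17.9 CPM in controls and psmg1 at 18.9, 24.7 and 24.2 CPM in transected guts and 18.8, 21.2 and 21.1 CPM in controls. In both genes transected 2 and 3 lay above all controls. psmg2, the partner of psmg1, and psmg3, a chaperone of the alpha ring, had negative estimates. psmg2 was at 22.6, 21.8 and 22.1 CPM in transected guts and 22.3, 24.3 and 24.2 CPM in controls, a spread of under 1 CPM among transected guts, with a log2 fold change of -0.091 (adjusted p = 0.882, SE 0.092). psmg3 had 10.9 ± 0.723 CPM in transected guts and 11.4 ± 1.49 CPM in controls and a log2 fold change of -0.059 (adjusted p = 0.965, SE 0.14) that was 0.026 without control replicate 1. Whether psmg1 differs from psmg2 in its response was not tested. The 2 genes that are not part of the complex, psmc3ip (a meiotic recombination factor in mammals) and psme3ip1, had log2 fold changes of 0.31 (adjusted p = 0.867, SE 0.29) and 0.039 (adjusted p = 0.976, SE 0.15). psme3ip1 was -0.082 without control replicate 1 and -0.029 without transected replicate 3. psmc3ip was at 5.84, 3.97 and 3.66 CPM in transected guts and 4.37, 2.51 and 3.98 CPM in controls, highest in transected 1, unlike the core subunits.

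Proteasome genes that did not pass the filter number 7. psma5, psmd10, psme3 and psmb11a had 0 counts in all 6 libraries, which allows up to 0.115 to 0.139 CPM per library (3 counts). psmc6 and psmb11b had 1 count, both in control 3, and psme1 had 2 counts in transected 3 and 1 in control 1. psma5 and psmc6 encode obligate subunits of the alpha ring and of the ATPase ring, while psmb11 genes encode a catalytic subunit restricted to the thymus in mammals. Since genes every cell uses are listed at or near 0, a low value in this table does not show that a transcript was missing from the tissue. psme1 in particular, the partner of psme2 in PA28, cannot be judged.

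Genes that work with the proteasome had smaller medians. Of 19 proteasome-bound accessory and assembly factors tested, 15 had a log2 fold change above 0, the median was 0.068 and 0 were called, against 0.18 for the 49. The ubiquitin receptor gene adrm1 was at 69.9, 69.7 and 80.3 CPM in transected guts and 63.7, 67.7 and 68.5 CPM in controls, without overlap, and its log2 fold change was 0.14 (adjusted p = 0.797, SE 0.097). pomp, the chaperone that matures the core, was 49.0 ± 9.14 CPM in transected guts and 46.4 ± 7.07 CPM in controls, with a log2 fold change of 0.079 (adjusted p = 0.965, SE 0.18). The redox gene txn, whose relative txnl1 binds the cap, had the smallest p of this list, at 67.7, 70.3 and 75.0 CPM in transected guts and 61.9, 48.8 and 55.5 CPM in controls and a log2 fold change of 0.36 (adjusted p = 0.515, SE 0.11). In 2 of the 19 genes (adrm1 and txn) every transected library exceeded every control, against 7.48% of all genes. Of 24 ubiquitin precursor and conjugation genes 19 were positive with a median of 0.051, and of 23 genes of the VCP segregase and ER-associated degradation 15 were positive with a median of 0.085. Neither list had a called gene. The E2 gene ube2d2l was at 26.9, 26.7 and 31.7 CPM in transected guts and 20.1, 22.7 and 23.7 CPM in controls, without overlap, with a log2 fold change of 0.36 (adjusted p = 0.534, SE 0.12). Of the 24 ubiquitin genes, 2 (ube2d2l and cul3a) lay wholly above the controls, against 7.48% of all genes. Wholly below lay 1, ube2g1b (log2 fold change -0.25), against 6.38%. Differences between these lists and the proteasome genes were not tested.

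Listed regulators of proteasome genes had mostly negative estimates. The list mixes activators with the repressor bach1b, so its median is not a direction of regulation. Of 12 genes of the NRF1 and NRF2 type tested, 3 were positive and 9 negative, with a median log2 fold change of -0.16, and 0 were called in either direction. nfe2l1a, an NRF1 gene, was at 7.15, 8.07 and 7.28 CPM in transected guts and 8.61, 10.1 and 10.1 CPM in controls. Each transected library lay below each control, and the log2 fold change was -0.36 (adjusted p = 0.574, SE 0.14). Such a gap was found in 2 of the 12 (nfe2l1a and bach1b) and in 6.38% of all genes. Its copy nfe2l1b had 0 counts in all libraries and cannot be judged. bach1b, which encodes a repressor that competes with NRF2 for its sites, was at 17.0, 14.2 and 15.3 CPM in transected guts and 22.0, 21.1 and 26.9 CPM in controls, also without overlap, with a log2 fold change of -0.59 (adjusted p = 0.412, SE 0.14). nfe2l2a, an NRF2 gene, was 201 ± 28.9 CPM in transected guts and 237 ± 4.86 CPM in controls, with a log2 fold change of -0.24 (adjusted p = 0.740, SE 0.13). ddi2, the protease that activates NRF1 in mammals, had a log2 fold change of 0.049 (adjusted p = 0.949, SE 0.092).

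Genes that share the immunoproteasome's setting were mixed. Of 20 genes of MHC class I antigen processing tested, 14 were positive with a median of 0.12, and 0 were called. b2m, the class I light chain, was at 7.15, 7.13 and 7.07 CPM in transected guts and 5.74, 6.56 and 5.43 CPM in controls, without overlap, with a log2 fold change of 0.27 (adjusted p = 0.729, SE 0.14). It was the 1 gene of these 20 wholly above the controls, against 7.48% of all genes. tap2a, beside psmb9a in the genome, had 6, 5 and 9 counts in the transected libraries against 6, 3 and 1 in the control libraries and did not pass the filter. Of 20 interferon genes tested, 15 were positive with a median of 0.22 (-0.89 to 2.81), 0 were called by edgeR and 1 (gbp1) by DESeq2. Over all genes 50.5% were positive, and DESeq2 called 0.846% higher and 0.576% lower. In 5 of the 20 every transected library exceeded every control, and in 1 every transected library lay below, against 7.48% and 6.38% of all genes. The guanylate-binding protein gene gbp1 was at 7.64, 6.0 and 13.2 CPM in transected guts and 4.45, 3.77 and 3.21 CPM in controls, without overlap, with a log2 fold change of 1.23 (adjusted p = 0.422, SE 0.32). jak1, a kinase of interferon receptors, was at 76.8, 91.6 and 90.5 CPM in transected guts and 67.4, 69.9 and 70.0 CPM in controls, also without overlap, with a log2 fold change of 0.32 (adjusted p = 0.511, SE 0.10). irf1b, an interferon regulatory factor gene, was at 54.8, 30.8 and 18.3 CPM in transected guts and 15.8, 19.3 and 15.8 CPM in controls. It was highest in transected 1, while gbp1 and jak1 were highest in other transected libraries. The part of interferon signalling in the psmb8a, psmb9a and psmb10 values was not tested.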

How the data were processed

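The authors deposited raw counts per gene symbol for 6 libraries, not normalized. Per the labels' protocols, stranded mRNA libraries (TruSeq) were read in pairs of 100 bp on a NovaSeq 6000, checked with FastQC 0.11.8 and aligned to danRer11. Which aligner, counter, annotation and strand setting were used is not given in the sources used here. No coordinates or sequences are printed, since the gene table used for names and neighbours is of another assembly (GRCz12tu), in which 55 of the 56 symbols were found directly.

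Low genes were removed by filterByExpr with a minimum count of 10 and a minimum total of 15. It asks for a CPM worth about 10 counts in at least 3 libraries, the size of a group, so single libraries may hold fewer. Libraries were scaled by TMM (normalization factors 0.935 to 1.05) and tested by edgeR 4.0.16's quasi-likelihood test (R 4.3.3, robust), with group alone in the model, two-sided, and Benjamini-Hochberg adjustment over all 11466 genes tested. CPM uses TMM-scaled library sizes, log2 levels a prior count of 2, and a standard error is the log2 fold change over the root of the F statistic. One count is worth 0.0384 to 0.0465 CPM. DESeq2 1.42.0 and limma 3.58.1 were alternatives. The edgeR, DESeq2 and limma-voom fits with group alone were tested on simulated data that held no replicate effect. Fits with the replicate block, with other scalings or filters, or with libraries left out were not tested in this way.

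Replicate numbers were taken to pair the libraries. Deviations from group means, over 11466 genes, correlated between groups at 0.450, 0.512 and 0.177 (Pearson's r) for libraries with the same number, all over 0.1. Libraries with different numbers correlated at -0.53 to 0.12, and transected 2 with control 3 (0.12) passed that bar too. Deviations from a group mean are not independent of one another, so the check is weak, most of all for pair 3. The sample titles of replicates 2 and 3 also carry a further number that is the same in both groups. Those of replicate 1 do not share one, so the titles back pair 1 by its replicate number alone. What the further number stands for is not stated. Libraries of a group were not copies, since their counts differed beyond sampling noise (chi-square over degrees of freedom 26.4 to 243).

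Members, gene lists and the rule for named genes were chosen with earlier results of these data known. Named were proteasome genes past the threshold (0), the 2 highest and 2 lowest log2 fold changes of each class, all inducible beta subunits, the 10 non-overlapping genes with the smallest p and genes below the filter, and from other lists up to 2 per direction with an unadjusted p under 0.05. psmb7, psmd14, psmd1, psmd2, the remaining alpha genes, adrm1, pomp, nfe2l2a, ddi2, b2m, tap2a, irf1b and the named marker genes were added after their values were seen. Outside this rule, cul3a and ube2g1b were named because their groups did not overlap.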

Additional observations from a re-analysis of the deposited data

How the results depend on the processing

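In none of the 18 fits run beside the reported one did a proteasome gene pass an adjusted p of 0.05, and in the reported fit 0 passed at 0.10. The lowest adjusted p was 0.0972, for psmb3 after leaving out both replicate 1 libraries and adding the replicate block, an alternative added after the data were seen. The median log2 fold change of the tested proteasome genes was positive in all of them, from 0.077 (without control replicate 1) to 0.27 (without transected replicate 1). DESeq2, upper-quartile and library-size scaling moved the all-gene median by at most 0.010, with 45 positive genes under each. The immunoproteasome median ran from 0.24 to 0.87 when single libraries were left out. Calls over all genes (2 higher and 0 lower in edgeR) were 97 and 66 in DESeq2, 164 and 125 in DESeq2 with the replicate block, 0 higher in limma-voom, 3 and 1 in edgeR with the replicate block, 0 higher at an adjusted p under 0.01, 0 to 4 higher and 0 to 1 lower with 1 library left out, 99 and 172 without both replicate 1 libraries, and 339 and 412 when the block was added to that. The replicate block thus changed the calls over all genes in each fit it was added to, while 0 proteasome genes were called with or without it. Without both replicate 1 libraries psma6b was -0.031 and psme3ip1 -0.01, and with the block added -0.032 and -0.010. The assembly chaperone gene psmd9 turned too, from 0.024 with all libraries to -0.14 without both replicate 1 libraries. Among the 30 proteasome genes named by the rule above, leaving out 1 library turned the sign of psma6b (-0.049 to 0.069), psmb5 (-0.033 to 0.26), psmc5 (-0.050 to 0.15), psmd11a (-0.12 to 0.23), psmd12 (-0.060 to 0.19), psme3ip1 (-0.082 to 0.13), psmf1 (-0.21 to 0.0018) and psmg3 (-0.16 to 0.026). The causes were not tested. Levels per kilobase were not run, since no transcript lengths were used here. Counts of one gene given as a percentage of another's therefore compare libraries, not the amounts of the transcripts, and scarce refers to counts. The alternative beta subunits psmb12 and psmb13a and the immunoproteasome gene psmb9a gave no value under a filter of 1 CPM in 3 libraries. The immunoproteasome median of 0.60 with all 6 libraries is the value of psmb9a. At this depth the counting intervals of the psmb9a and psmb12 ratios include 1.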
